A study of Mus musculus with 2 samples.

Results

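Cells break glucose down to pyruvate and lactate by glycolysis, and the 30 genes described here encode that route and the oxygen-sensing system that tunes it. They comprise glucose and lactate transporters, the glycolytic enzymes from hexokinase to lactate dehydrogenase, and a kinase that inhibits pyruvate dehydrogenase. They also include regulators and targets of hypoxia-inducible factor (HIF). The genes were chosen by symbol, and all 30 had a row among the 32285 genes of both libraries. Immune cells were isolated from the colon of C57BL/6 mice during experimental colitis and made into 10x 3′ v3.1 single-cell libraries, 1 labelled WT and 1 labelled CKO. The series concerns RPA1 loss (RPA1 is a subunit of the single-strand DNA-binding replication protein A) and T cell necroptosis. The deleting Cre, the deleted exons, the colitis model, the sex and age of the mice and the number of mice in each library were not stated by the labels.

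Unique molecular identifiers (UMIs, each standing for 1 captured transcript) were added up within each class and library, and levels are counts per 1000000 UMIs of that sum (CPM). With 1 library for each label there is no replicate, so no difference below was tested between conditions. Cells of a library are not replicates, and the 95% intervals (exact Poisson for a level, exact binomial for a share or ratio) cover counting error only. The library labelled WT held 2972 barcodes and 18627050 UMIs, compared with 11311 barcodes and 57740083 UMIs for the label CKO. After filtering, 2924 and 10942 cells were kept, and 6 barcodes occurred in both libraries. Classes were named from marker genes, and 9 of them had at least 20 cells in each library. They held 1127 cells labelled WT and 5008 labelled CKO of B-like type, 372 and 661 T-like, 206 and 478 plasma-like, 182 and 1796 neutrophil-like, 101 and 269 of group 2 innate lymphoid-like (ILC2-like) type, 45 and 397 NK-like, 36 and 107 ILC3-like, 25 and 322 dendritic-like (DC-like) and 24 and 797 monocyte and macrophage-like. Each class carried all markers of its own list in both libraries, except that Fscn1 was at 0 in the DC-like and Mrc1 at 0 in the monocyte and macrophage-like cells labelled WT. The comparisons of NK-like, ILC3-like, DC-like and monocyte and macrophage-like cells therefore rest on only 24 to 45 cells labelled WT. Cells that were unnamed (568 and 325) or of mixed markers (218 and 638) were left out. Rpa1 stood at 37.1 CPM (73 UMIs) in the T-like cells labelled WT and 60.9 CPM (181 UMIs) in those labelled CKO, and at 27.9 and 25.1 CPM in B-like cells. It was thus not lower in T-like cells labelled CKO, and the libraries are called by their labels throughout. A 3′ tag can lie outside a deleted part, so Rpa1 does not check the labels.

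As background, hexokinase traps glucose in the cell, phosphofructokinase commits it to glycolysis, and lactate dehydrogenase regenerates NAD when pyruvate is reduced to lactate. HIF-1 alpha, encoded by Hif1a, is hydroxylated by the oxygen-dependent enzymes Egln1 and Egln3 and then degraded; when oxygen is scarce, or when inflammatory signals stabilise it, it pairs with ARNT and binds a short DNA core in the promoters of glycolytic genes. Neutrophils and inflammatory macrophages lean on glycolysis, and the inflamed gut is poorly oxygenated, which is why these genes are commonly read together in colitis. The abundance of these messages says nothing by itself about flux through the pathway.

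Many glycolytic promoters are known HIF targets, so promoter sequence is shown first. RefSeq promoter windows of GRCm38.p6, covering 250 bases before the start, matched 28 of the 30 members (not Slc2a3 and Bnip3l). The HIF core was searched as ACGTG or GCGTG on either strand, so also as CACGT or CACGC on the strand shown, and it overlaps the E-box CACGTG that MYC binds. At least 1 core lay in the windows of 22 of 28 members (78.6%) and in those of 10442 of 27025 genes (38.6%). The E-box lay in the windows of 4 members (Ldha, Slc16a1, Hif1a and Bnip3) and of 6.04% of all genes. Base composition was not matched, and a match is a stretch of letters, not a bound site. Ldha and Bnip3 had 5 cores each, Slc16a1 and Ankrd37 had 4, and Hk1, Gpi1, Aldoa, Tpi1, Pkm and Vegfa had 0. Shown 5′ to 3′ are members past 1.5-fold between the libraries in 4 or more classes, with the core in capitals and any overlapping exon removed. Tpi1 also met that rule but most of its window is exon, and Slc2a3 had no window. They are Vegfa at chr17:46032378-46032627 on the minus strand, Hk2 at chr6:82774455-82774704 (minus), Pfkl at chr10:78009808-78010004 (minus), Pgam1 at chr19:41911621-41911870 (plus) and Slc2a1 at chr4:119108495-119108710 (plus).
Vegfa: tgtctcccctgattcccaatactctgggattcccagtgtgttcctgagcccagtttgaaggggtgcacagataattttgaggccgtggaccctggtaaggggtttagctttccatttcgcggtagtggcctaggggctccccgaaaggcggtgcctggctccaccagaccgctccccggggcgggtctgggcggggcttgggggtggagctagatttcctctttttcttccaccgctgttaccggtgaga
Hk2: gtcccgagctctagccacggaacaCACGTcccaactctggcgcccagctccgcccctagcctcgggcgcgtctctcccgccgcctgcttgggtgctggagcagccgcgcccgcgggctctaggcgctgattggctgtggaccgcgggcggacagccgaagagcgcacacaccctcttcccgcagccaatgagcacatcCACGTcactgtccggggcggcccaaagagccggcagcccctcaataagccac
Pfkl: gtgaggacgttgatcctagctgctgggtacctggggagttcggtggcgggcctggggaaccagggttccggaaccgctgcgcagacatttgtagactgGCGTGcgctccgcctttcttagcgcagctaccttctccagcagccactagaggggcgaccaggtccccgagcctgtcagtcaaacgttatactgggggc
Pgam1: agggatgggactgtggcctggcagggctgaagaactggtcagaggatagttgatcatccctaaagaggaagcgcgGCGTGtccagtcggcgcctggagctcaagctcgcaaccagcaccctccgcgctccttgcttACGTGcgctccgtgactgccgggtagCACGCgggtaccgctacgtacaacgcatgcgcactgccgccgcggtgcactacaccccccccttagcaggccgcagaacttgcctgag
Slc2a1: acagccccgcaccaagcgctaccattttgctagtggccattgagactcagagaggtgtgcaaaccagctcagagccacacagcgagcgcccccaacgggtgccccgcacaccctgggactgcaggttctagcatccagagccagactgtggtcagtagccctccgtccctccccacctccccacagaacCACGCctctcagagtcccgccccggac
In these windows the cores of Hk2 began at -226 and -52 from the start, that of Pfkl at -99, those of Pgam1 at -175, -114 and -88, and the core printed for Slc2a1 at -61. Vegfa, the member past 1.5-fold in the most classes, held none of these letters in its window, which says nothing about sites outside it.

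The first question was which cells carried the messages. The class that led was often the same in both libraries, for 17 of the 30 members. ILC3-like cells led for Hk2, the inducible hexokinase, at 917 CPM (798 to 1049) labelled WT and 956 CPM (870 to 1048) labelled CKO. The class in the next place reached 241 CPM (neutrophil-like, labelled WT) and 267 CPM (monocyte and macrophage-like, labelled CKO), so the intervals of the leading class stood clear in each library. ILC3-like cells also led for Vegfa, the vascular growth factor, at 866 CPM labelled WT and 576 CPM labelled CKO, ahead of NK-like cells at 507 and 251 CPM. Pfkfb3, which makes the activator of phosphofructokinase, was highest there too at 164 and 135 CPM. At 164 against 154 CPM, its order over neutrophil-like cells labelled WT lay within counting error.

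**Figure D1:**
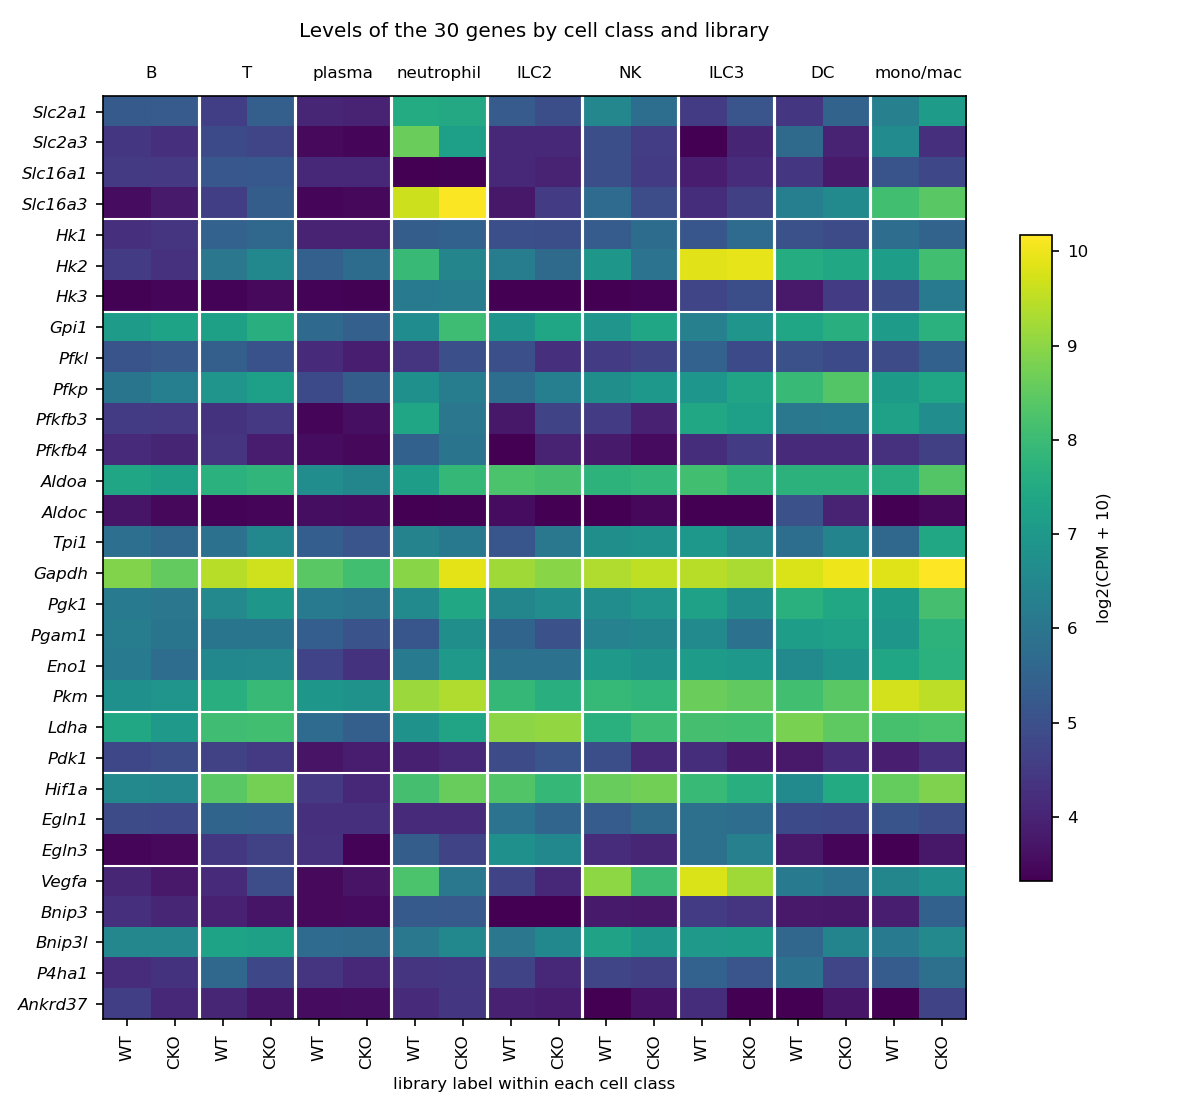
Heat map of log2(CPM + 10) for the 30 genes (rows, grouped by role with white lines) in the 9 cell classes (columns, WT then CKO label; mono/mac stands for monocyte and macrophage-like). Slc16a3 is brightest in neutrophil-like cells, Hk2 and Vegfa in ILC3-like cells, and Gapdh is bright in every column.

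Neutrophil-like cells led for 5 members in both libraries. Slc16a3, the lactate exporter MCT4, reached 801 CPM (715 to 895) labelled WT and 1116 CPM (1087 to 1145) labelled CKO, against 266 and 331 CPM in monocyte and macrophage-like cells. The glucose transporters Slc2a1 (177 and 166 CPM) and Slc2a3 (383 and 136 CPM), the myeloid hexokinase Hk3 (59.1 and 64.4 CPM) and Pfkfb4 (33.4 and 52.7 CPM) also peaked there. Hk3 in monocyte and macrophage-like cells labelled CKO, at 61.3 CPM, did not differ from the neutrophil-like level beyond counting error. Slc16a1, the lactate transporter MCT1, showed the opposite placing. Its highest level was in T-like cells (26.4 and 26.9 CPM), within counting error of monocyte and macrophage-like cells (24.6 and 17.9 CPM). Neutrophil-like cells held 0 UMIs of Slc16a1 labelled WT and 1 UMI labelled CKO. A count of 3 UMIs in those labelled WT would be 7.70 CPM, which is below the upper end of the exact Poisson interval.

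Monocyte and macrophage-like cells led for 3 enzymes of the lower pathway in both libraries: Gapdh (899.8 and 1146 CPM), Eno1 (152 and 199 CPM) and Pkm (826 and 706 CPM), which encode glyceraldehyde-phosphate dehydrogenase, enolase and pyruvate kinase. In the library labelled WT the lead of Gapdh over DC-like cells (870.6 CPM) and of Eno1 over ILC3-like cells (129 CPM) lay within counting error. DC-like cells led for the platelet-type phosphofructokinase Pfkp (237 and 314 CPM) and for the aldolase Aldoc (22.6 and 6.15 CPM). ILC2-like cells led for Ldha, lactate dehydrogenase A, at 494 CPM (437 to 556) and 523 CPM (476 to 574), and for the prolyl hydroxylase Egln3 at 97.7 and 81.7 CPM. The lead of Ldha labelled WT over DC-like cells (433 CPM) lay within counting error. For Egln3 the intervals in ILC2-like cells overlapped those in ILC3-like cells (47.4 and 69.6 CPM) in each library. T-like cells led for Bnip3l, a mitophagy receptor, at 147 and 139 CPM, with NK-like cells (144 CPM, labelled WT) and ILC3-like cells (122 CPM, labelled CKO) within counting error. Plasma-like cells were among the lowest, with Gapdh at 332 and 267 CPM and Ldha at 42.7 and 32.4 CPM. Their summed UMIs are dominated by immunoglobulin, at 472900 and 461700 CPM, which lowers every other gene on a CPM scale.

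For the other 13 members the class at the top differed between the libraries, and monocyte and macrophage-like cells led for 4 members labelled WT but 12 labelled CKO. In the library labelled WT, the interval of the leading class overlapped that of another class for each of these 13 members. Which class led there is therefore uncertain. Pgk1, phosphoglycerate kinase, peaked in DC-like cells labelled WT (192 CPM) but in monocyte and macrophage-like cells labelled CKO (274 CPM). The same pair of classes held the peaks of the mutase Pgam1 (132 and 207 CPM) and of the collagen prolyl hydroxylase P4ha1 (49.0 and 47.6 CPM). Triose-phosphate isomerase Tpi1 (ILC3-like, 116 CPM; monocyte and macrophage-like, 158 CPM) and aldolase Aldoa (ILC2-like, 293 CPM; monocyte and macrophage-like, 311 CPM) had their WT-labelled peaks in innate lymphoid classes, as did the liver-type phosphofructokinase Pfkl (34.5 CPM in ILC3-like, 33.4 CPM). Hif1a was highest in NK-like cells labelled WT (372 CPM) but in monocyte and macrophage-like cells labelled CKO (449 CPM). In each library the interval of its next class, at 369 and 414.5 CPM, overlapped that of the highest. Glucose-phosphate isomerase Gpi1 went from DC-like (155 CPM) to neutrophil-like (252 CPM), Hk1 from monocyte and macrophage-like (44.3 CPM) to NK-like (43.9 CPM), and the mitophagy receptor Bnip3 from neutrophil-like (28.2 CPM) to monocyte and macrophage-like cells (33.4 CPM). Egln1 (50.7 CPM in ILC2-like, 44.3 CPM in ILC3-like), the pyruvate dehydrogenase kinase Pdk1 (21.1 CPM in NK-like, 24.9 CPM in ILC2-like) and Ankrd37 (14.0 CPM in B-like, 16.3 CPM in monocyte and macrophage-like) complete the list. All 3 had intervals in the leading and next class that overlapped in each library.

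The comparison between the labels asked, within each class, which members differed by at least 1.5-fold. A member was read in a class where it had 20 or more UMIs over both libraries, and 15 members were read in all 9 classes. A count of 0 was set to 3 UMIs. A gene was not read where its ratio then did not point away from the library with 0 UMIs. By this rule Egln3, with 21 UMIs labelled CKO, was not read in monocyte and macrophage-like cells. The same rules held for all genes. In monocyte and macrophage-like cells 12 of 28 members were higher and 2 lower, where 18.4% of all genes read were higher and 22.1% lower, and the median log2 ratio was 0.44 for the members and -0.06 for all genes. In neutrophil-like cells 8 of 28 were higher and 6 lower (all genes 20.3% and 27.2%), with medians of 0.32 and -0.10. Median-of-ratios scaling, which moved the median of all genes there from -0.10 to 0.01, gave 13 higher and 5 lower. It raised the ratio of every gene alike, so the shares of all genes above do not apply to those counts. These myeloid classes were the ones in which the members' median lay furthest above that of all genes.

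In DC-like cells 6 of 26 members were higher and 3 lower (all genes 23.8% and 14.2%), and in T-like cells 4 of 28 were higher and 4 lower (15.9% and 7.89%). When each cell was called by its own marker UMIs, T-like cells had 7 of 29 higher and 0 lower. NK-like cells had 0 of 22 higher and 6 lower (17.8% and 13.9%), or 1 higher and 6 lower with median-of-ratios scaling. Cells called by their own markers gave 3 higher and 4 lower there, and leaving out the cell of most UMIs of each member gave 4 higher and 2 lower. That cell usually holds a larger share of the UMIs in the library with fewer cells, so leaving it out tends to raise these ratios. For Hk2 in NK-like cells it held 18.5% of the UMIs labelled WT and 3.96% of those labelled CKO. In these 3 classes the members' median lay within 0.11 of that of all genes, at 0.10 against 0.07, 0.14 against 0.09 and 0.10 against -0.01. B-like cells had 1 of 29 higher and 3 lower (5.04% and 7.65%), and plasma-like cells 4 of 25 in each direction (6.44% and 9.86%). ILC2-like cells had 1 of 19 higher and 3 lower (12.7% and 11.3%), and ILC3-like cells 2 of 19 in each direction (13.7% and 13.2%), or 3 higher and 1 lower with median-of-ratios scaling. With 19 to 29 members read per class, 1 member is a large step in these shares. The shares of all genes belong to the first count given for each class, not to counts under other settings.

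**Figure D2:**
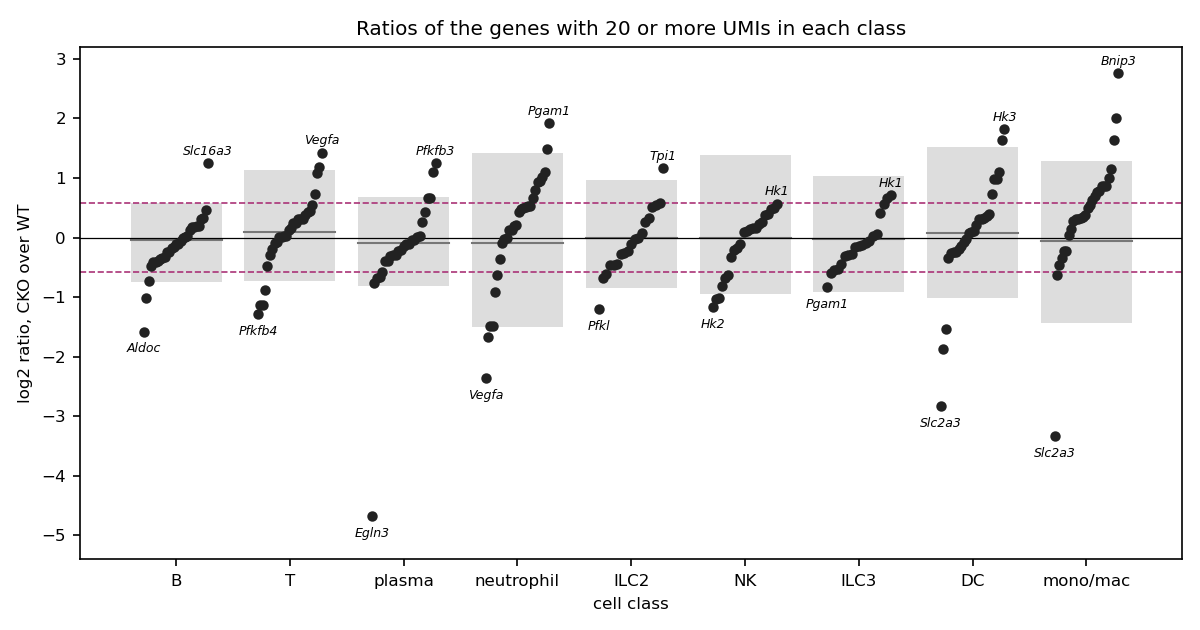
Log2 ratio (CKO over WT label) of each member with 20 or more UMIs, 1 point per gene, by cell class (mono/mac stands for monocyte and macrophage-like); grey boxes span the 5th to 95th percentile of all genes read, grey lines their median, and dashed lines mark 1.5-fold. Members outside the grey boxes are few, among them Slc2a3 and Bnip3 in mono/mac, Vegfa and Pgam1 in neutrophil and Egln3 in plasma.

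In neutrophil-like cells the members furthest lower labelled CKO were Vegfa, Hk2, Slc2a3 and Pfkfb3, and those furthest higher were Pgam1 and Gpi1. Vegfa was at 290.1 CPM (239 to 349; 113 UMIs) labelled WT and 56.4 CPM (50.1 to 63.2; 294 UMIs) labelled CKO, a log2 ratio of -2.36 (-2.68 to -2.04). Hk2 was at 241 CPM (195 to 295) and 76.1 CPM (68.8 to 84.0), a log2 ratio of -1.66 (-1.99 to -1.32). These intervals do not overlap between the libraries. Slc2a3, the high-affinity transporter GLUT3, was at 383 CPM (324 to 449) and 136 CPM (126 to 147), a log2 ratio of -1.49. Pfkfb3 was at 154 CPM (118 to 198) and 55.2 CPM (49.0 to 62.0), a log2 ratio of -1.48. Egln3, itself a HIF target, had a log2 ratio of -0.92 with an interval that includes 0 (-1.80 to 0.09), and Pfkp one of -0.63 (-1.12 to -0.10). The other glucose transporter, Slc2a1, stayed within counting error at 177 CPM (138 to 224) and 166 CPM (155 to 178).

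The 8 members that were higher in neutrophil-like cells labelled CKO encode enzymes, among them those of consecutive steps from glyceraldehyde-phosphate dehydrogenase to enolase. Pgam1 was at 25.7 CPM (12.3 to 47.2; 10 UMIs) and 97.2 CPM (88.9 to 106; 507 UMIs), a log2 ratio of 1.92. Gpi1 was at 89.9 CPM (62.6 to 125) and 252 CPM (239 to 266), a log2 ratio of 1.49. Gapdh was at 485 CPM (419 to 560) and 940.2 CPM (914 to 967), a log2 ratio of 0.95. Their intervals are apart between the libraries. Eno1 (1.01), Pgk1 (0.93) and Aldoa (0.80) also had intervals above 0, whereas those of Pfkl (1.10, 4 UMIs labelled WT) and Pfkfb4 (0.66) include it. Pkm (0.21), Ldha (0.50), Hif1a (0.43) and Slc16a3 (0.48) were under 1.5-fold, as was Tpi1, at 74.5 and 57.7 CPM (-0.37; -0.92 to 0.24). Eno1 has the near-identical copy Eno1b, with which it summed to 0.94, and Gapdh, Pgk1, Pgam1, Tpi1 and Ldha have processed copies in the mouse genome, so their levels are uncertain to the extent that reads were split among copies.

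**Figure D3:**
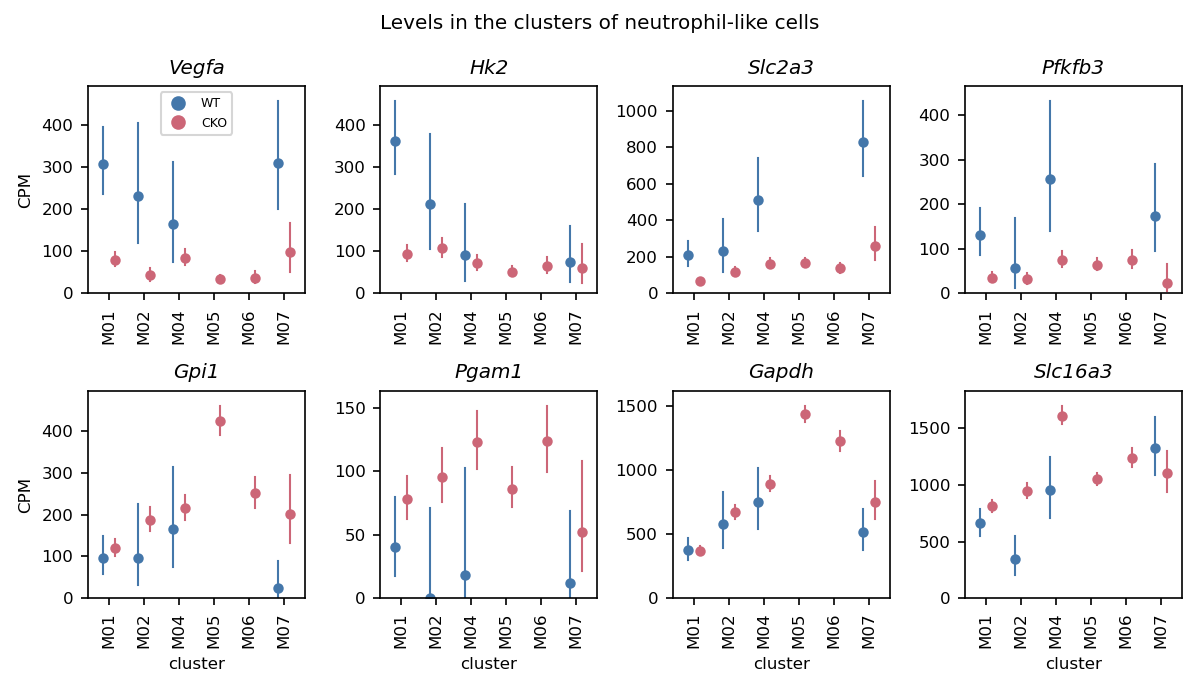
CPM with 95% Poisson intervals of 8 members in the 6 clusters of neutrophil-like cells (coloured by library label; M06 labelled WT, with 1 cell, is not drawn). Vegfa and Slc2a3 are higher labelled WT in each of the 4 clusters that both libraries fill, whereas Gapdh and Gpi1 are highest in M05, which held 0 cells labelled WT.

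The mix of neutrophil-like clusters differed between the libraries. Cluster M05, led by the granule genes Ngp and Camp, held 0 cells labelled WT and 321 labelled CKO, and M06, led by Cxcl3 and Stfa2l1, held 1 and 203. Gpi1 reached 424 CPM and Gapdh 1437 CPM in M05. With the 4 clusters filled by both libraries (181 and 1272 cells) given equal weights in both, the log2 ratio of Gapdh was 0.20 in place of 0.95 and that of Gpi1 0.68 in place of 1.49. Those of Pgam1 (1.86), Eno1 (0.88) and Pgk1 (0.81) moved by less. Weighted in this way, Vegfa remained at -1.76, Hk2 at -1.42, Slc2a3 at -1.56 and Pfkfb3 at -1.86. Vegfa was at 308 CPM (235 to 395) and 80.0 CPM (64.1 to 98.5) in M01, the largest cluster labelled WT, and at 309 and 97.3 CPM in M07, led by Fos, Fosb and Osm. Hk2 differed in M01 (363 and 94.5 CPM) and M02 (213 and 108 CPM), but in M04 (91.6 and 73.0 CPM) and M07 (74.1 and 59.9 CPM) the libraries lay within counting error.

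Genes of cell dissociation and of other cells' RNA differed in the same class, and their part in these ratios was not tested. Of 15 dissociation stress genes, all read in neutrophil-like cells, 0 were higher and 9 lower labelled CKO (all genes 20.3% and 27.2%). Their sum went from 12410 to 7849 CPM. Hspa1b had a log2 ratio of -3.16, Hspa1a -2.02, Fosb -1.60 and Jun -1.46. Immunoglobulin UMIs, which neutrophils do not make, were at 6688 and 2365 CPM. The neutrophil markers S100a8 (20460 and 54510 CPM) and Retnlg (2195 and 14300 CPM) were higher labelled CKO and, as abundant messages, take a share of every CPM total. When each cell was thinned to 1000 UMIs, 21.9% of neutrophil-like cells labelled WT (15.7 to 29.1) and 5.81% of those labelled CKO (4.75 to 7.02) held a Vegfa UMI, against 30.2% and 10.9% of unthinned cells. The shares with a Gapdh UMI were 31.9% and 47.4%.

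In monocyte and macrophage-like cells, 24 of them labelled WT, 12 of 28 members were higher labelled CKO, 2 were lower and 14 were neither. Tpi1 was at 39.3 CPM (16.98 to 77.5; 8 UMIs) labelled WT and 158 CPM (148 to 168; 951 UMIs) labelled CKO, a log2 ratio of 2.01 (1.02 to 3.22). Pgk1 was at 123 CPM (79.6 to 182) and 274 CPM (261 to 288), a log2 ratio of 1.16. Hk2, lower in neutrophil-like cells, was here at 133 CPM (87.5 to 193) and 267 CPM (254 to 279.9), a log2 ratio of 1.01 (0.46 to 1.61). The intervals of these 3 genes are apart between the libraries. Bnip3 had 1 UMI labelled WT and 201 labelled CKO, a log2 ratio of 2.76 with an interval from 0.27 to 8.07, and Hk3 had 4 and 369 UMIs (1.64; 0.27 to 3.52). Pgam1 (0.87), Slc2a1 (0.86), Aldoa (0.78) and Gpi1 (0.63) had intervals above 0. For Pdk1 (0.87, 1 UMI labelled WT), Pfkl (0.76) and P4ha1 (0.69) they include 0, and Pdk1 was at -0.95 when each cell was called by its own marker UMIs. Ankrd37 had 0 UMIs labelled WT, a count set to 3 UMIs (14.8 CPM) by the rule above, and 16.3 CPM labelled CKO. That setting is not the upper end of the exact Poisson interval, which lies higher. No difference beyond counting error is therefore claimed for Ankrd37 here.

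Slc2a3 had the lowest ratio of the members read in these cells. It was at 88.5 CPM (52.5 to 140; 18 UMIs) labelled WT and 8.80 CPM (6.59 to 11.5; 53 UMIs) labelled CKO, a log2 ratio of -3.33 (-4.13 to -2.47). Of the 18 UMIs labelled WT, 12 came from the 6 cells of cluster M13, led by Igkc, Jchain and C1qa, at 271 CPM, and 6 came from the 17 cells of M03, at 41.0 CPM. In cells labelled CKO both clusters were near 10 CPM, at 10.3 and 9.47 CPM. Pfkfb3 was the other member past 1.5-fold lower, at 143 and 92.5 CPM (-0.63). Slc2a3 is a neutrophil-rich message, and the summed neutrophil markers were at 8064 CPM labelled WT and 10850 CPM labelled CKO in these cells. T cell markers were at 319.6 and 46.2 CPM. The part of such other cells' RNA was not tested.

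**Figure D4:**
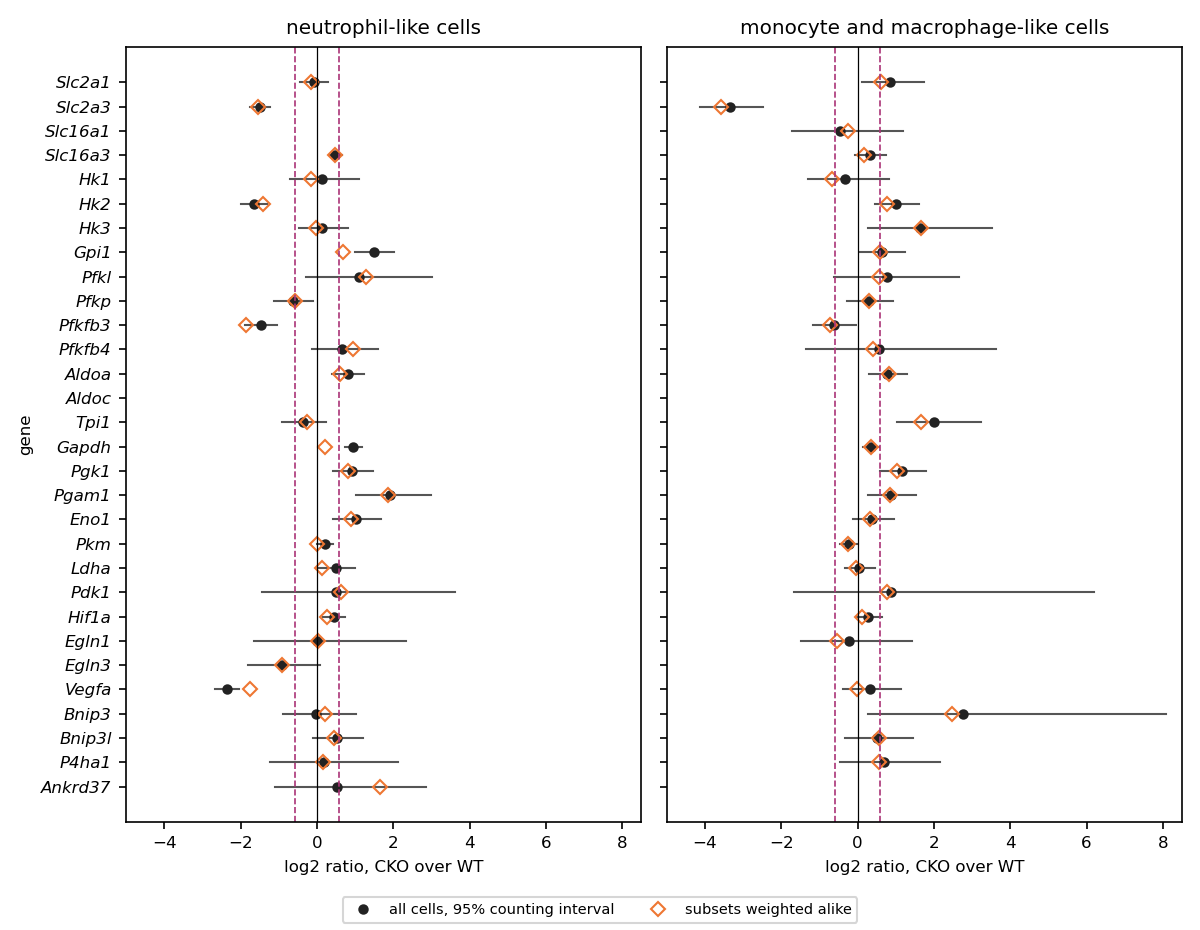
Log2 ratio (CKO over WT label) of each member in neutrophil-like (left) and monocyte and macrophage-like cells (right), with 95% counting intervals (black) and with clusters given equal weights in both libraries (orange); members with under 20 UMIs or with 0 UMIs labelled WT have no black point. Hk2 lies at -1.66 in neutrophil-like and at 1.01 in monocyte and macrophage-like cells, while Slc2a3 is negative in both.

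The cluster mix differed here as well. Cluster M15, led by Nos2, Inhba and Edn1, held 1 cell labelled WT and 149 labelled CKO and had the highest Tpi1 (277 CPM), Bnip3 (66.01 CPM) and Slc2a1 (166 CPM) of the clusters with over 100 cells labelled CKO. Over the 2 clusters that both libraries filled (23 and 621 cells), equal weights gave a median log2 ratio of 0.39 for the members and -0.05 for all genes. Tpi1 was then at 1.66, Pgk1 at 1.03, Hk2 at 0.76 and Bnip3 at 2.46. Of the dissociation stress genes, 8 of 15 were lower labelled CKO (all genes 22.1%), led by Fos (-1.75). Higher were 2 (all genes 18.4%), Atf3 (1.20) and, on 5 UMIs labelled WT and with an interval that includes 0, Hspa1a (0.73; -0.52 to 2.36). Their part was not tested.

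In DC-like cells, 25 of them labelled WT, 6 members were higher and 3 lower labelled CKO. Of the 6, Hk3, Tpi1, Slc2a1 and Pdk1 were also higher in monocyte and macrophage-like cells. Hif1a was at 86.7 CPM (55.0 to 130; 23 UMIs) labelled WT and 172 CPM (158 to 187) labelled CKO, a log2 ratio of 0.99 (0.39 to 1.66). Slc2a1 had 3 and 109 UMIs (1.64; 0.06 to 3.94), Bnip3l 10 and 231 (0.99) and Tpi1 12 and 233 (0.74, interval including 0). Slc2a3 was lower in both classes, here at 41.5 CPM (20.7 to 74.2; 11 UMIs) and 5.82 CPM (3.45 to 9.20), a log2 ratio of -2.83. P4ha1 was at 49.0 CPM (26.1 to 83.8) and 16.8 CPM (12.6 to 22.1), a log2 ratio of -1.54, and Aldoc had 6 and 19 UMIs (-1.88). Hk3 (1.82) and Pdk1 (1.10) rest on 1 UMI labelled WT each. Summed neutrophil markers in DC-like cells were at 1206 CPM labelled WT and 3057 CPM labelled CKO.

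Vegfa was lower labelled CKO in NK-like and ILC3-like cells. In NK-like cells Vegfa was at 507 CPM (420 to 606) and 251 CPM (229.6 to 274), a log2 ratio of -1.01 (-1.30 to -0.71), and it was lower in both NK-like clusters (497 and 223 CPM in L12, 519.8 and 304 CPM in L13). Hk2 was at 114 CPM (75.1 to 166; 27 UMIs) and 50.9 CPM (41.5 to 61.9), a log2 ratio of -1.16, and Slc2a1 was at 80.2 and 45.4 CPM (-0.82; -1.55 to -0.02). Hk2 depended on which cells were called NK-like: when each cell was called by its own marker UMIs the log2 ratio was 0.34. The log2 ratios of the lactate transporters Slc16a3 (-1.03) and Slc16a1 (-0.69) and of Slc2a3 (-0.63; 0.10 with cells called by their own markers) have intervals that include 0. Summed ILC3 markers in NK-like cells were at 1359 CPM labelled WT and 293 CPM labelled CKO, with Cd4 at 0 labelled WT, and ILC3-like cells are the class highest in Vegfa and Hk2. Dissociation stress genes were lower for 7 of 15 (all genes 13.9%), with Fos at -2.73. The part of neither was tested.

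In ILC3-like cells Vegfa was at 866 CPM (749.9 to 994) and 576 CPM (509.5 to 648), a log2 ratio of -0.59 (-0.86 to -0.32), just past 1.5-fold. Summed erythroid markers in these cells were at 17.2 CPM labelled WT and 7045 CPM labelled CKO, and their part was not tested. The very high Hk2 of ILC3-like cells differed by less than counting error (0.06; -0.18 to 0.30). Hk1 (0.71), Gpi1 (0.67) and Pgam1 (-0.83), the other members past 1.5-fold there, have intervals that include 0. In ILC2-like cells Tpi1 was higher labelled CKO, at 25.3 CPM (13.9 to 42.5; 14 UMIs) and 56.8 CPM (41.9 to 75.3), a log2 ratio of 1.17 (0.28 to 2.14). Pfkl (-1.20, 12 and 8 UMIs), Pgam1 (-0.69) and Hk2 (-0.61) were past 1.5-fold lower with intervals that include 0. Hif1a in ILC2-like cells was at 311 and 225 CPM, a log2 ratio of -0.47 (-0.77 to -0.16).

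In T-like cells, the cells in which the series' title places necroptosis, the 4 members higher labelled CKO were Vegfa, Slc2a1, Slc16a3 and Tpi1. Vegfa was at 7.62 CPM (4.27 to 12.6; 15 UMIs) and 20.5 CPM (15.7 to 26.3; 61 UMIs), a log2 ratio of 1.43 (0.59 to 2.35). Slc2a1, the GLUT1 transporter that T cells raise on activation, was at 14.2 CPM (9.46 to 20.6) and 32.3 CPM (26.1 to 39.4), a log2 ratio of 1.18 (0.56 to 1.84). Slc16a3 was at 14.2 and 30.3 CPM (1.09; 0.46 to 1.76), and Tpi1 at 49.3 and 82.0 CPM (0.73; 0.39 to 1.09). For all 4 genes the levels labelled CKO lay above the interval labelled WT. The other glucose transporter, Slc2a3, was at 19.3 and 16.8 CPM, within counting error, and Hk2 was under 1.5-fold (0.55). Lower labelled CKO were P4ha1, at 39.1 CPM (30.9 to 48.9) and 17.8 CPM (13.4 to 23.3), with a log2 ratio of -1.14, and Pfkfb4 (-1.29; -2.41 to -0.22). The ratios of Ankrd37 (-1.13) and Bnip3 (-0.89) rest on 13 and 11 UMIs labelled WT and have intervals that include 0, and that of Bnip3 was 0.30 with cells called by their own markers.

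T-like clusters were also mixed differently, since the Lef1 and Ccr7 cluster L06 made up 37.9% of T-like cells labelled WT and 12.4% of those labelled CKO. The members summed to 2143 and 1800 CPM in L06, and to 3703 and 4185 CPM in L07, led by Tnfrsf4 and Maf, which made up 10.8% and 21.0% of the class. With equal cluster weights in both libraries Tpi1 was at 0.32 in place of 0.73. The members' median was then 0.08 and that of all genes 0.02. Slc2a1 was at 12.3 and 31.1 CPM in L03, 21.2 and 39.9 CPM in L07, 6.98 and 52.7 CPM in L08 and 16.1 and 16.6 CPM in L06, each on at most 25 UMIs and with intervals that overlap. Markers of other classes differed as well: the summed ILC3 list was at 395.9 and 764 CPM in T-like cells, the NK list at 64.6 and 165 CPM and the gamma-delta T list at 293.8 and 749 CPM, and their part in the Vegfa ratio was not tested. Of the 6 genes of the free neutrophil RNA list, 3 were higher and 0 lower in T-like cells (all genes 15.9% and 7.89%). Il1b (1.25) and Cxcl2 (1.04) were among the 3, while S100a9 was at 137 and 135 CPM. Slc16a3 is most abundant in neutrophil-like cells, and the part of free RNA in its T-like ratio was not tested.

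B-like cells, the deepest class, showed small ratios. Gapdh was at 459.5 CPM (441 to 478) and 362 CPM (353 to 371), a log2 ratio of -0.34, and Ldha was at 161 CPM (149.8 to 172) and 122 CPM (116 to 127), a log2 ratio of -0.40. Both differences exceed counting error and fall short of 1.5-fold. Past it were Slc16a3 (9 and 68 UMIs; 1.25), Aldoc (16 and 17 UMIs; -1.58), Ankrd37 at 14.0 CPM (11.0 to 17.6) and 6.93 CPM (5.72 to 8.32), with a log2 ratio of -1.01, and Vegfa (-0.73; -1.35 to -0.09). The free neutrophil RNA list was higher for 6 of 6 genes in B-like cells (all genes 5.04%), by a median log2 ratio of 1.78. Dissociation stress genes were lower for 7 of 15 (all genes 7.65%), with Fos at -1.43. Neither part was tested.

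In plasma-like cells the lowest ratio of all came from 1 cell. Egln3 had 43 UMIs labelled WT and 3 labelled CKO, a log2 ratio of -4.68, and 36 of the 43 UMIs (83.7%) lay in 1 cell. Higher labelled CKO were Pfkp, at 19.3 CPM (15.4 to 23.9) and 30.5 CPM (26.7 to 34.6), with a log2 ratio of 0.66, and, on 4 to 12 UMIs labelled WT and with intervals that include 0, Pfkfb3 (1.25), Vegfa (1.10) and Pdk1 (0.66). Eno1 was at 15.8 and 9.98 CPM (-0.67; -1.15 to -0.18), and Hif1a at 11.9 and 7.04 CPM (-0.76; -1.34 to -0.19). Both of these depended on the cells taken. With doublets retained the log2 ratio of Hif1a was -0.17, and with cells called by their own markers that of Eno1 was 0.04. Pfkl (-0.68) has an interval that includes 0.

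Shares of isoenzymes do not depend on the totals by which CPM is scaled. Of the hexokinase UMIs in neutrophil-like cells, Hk2 gave 72.9% (64.3 to 80.3; 94 of 129) labelled WT and 43.7% (40.4 to 47.0; 397 of 909) labelled CKO. Hk3 gave 17.8% (11.7 to 25.5) and 37.0% (33.8 to 40.2). In ILC3-like cells Hk2 gave 95.5% and 93.8%, and in monocyte and macrophage-like cells 67.5% and 73.5%, within counting error in both classes. In NK-like cells it gave 79.4% (62.1 to 91.3) and 53.4% (46.1 to 60.7). Slc2a1 gave 31.7% (25.5 to 38.3) and 55.0% (52.5 to 57.4) of the glucose transporter UMIs in neutrophil-like cells, 43.8% (26.4 to 62.3) and 93.4% (91.5 to 95.04) in monocyte and macrophage-like cells and 21.4% (4.66 to 50.8) and 85.8% (78.5 to 91.4) in DC-like cells. In T-like cells the shares were 42.4% (30.3 to 55.2) and 65.8% (57.5 to 73.4). In B-like, plasma-like, ILC2-like and NK-like cells Slc2a1 made up 71.5% to 86.5% in each library. Slc2a1 thus took the larger share labelled CKO in each of the 4 classes named first, on 14 to 218 UMIs labelled WT.

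**Figure D5:**
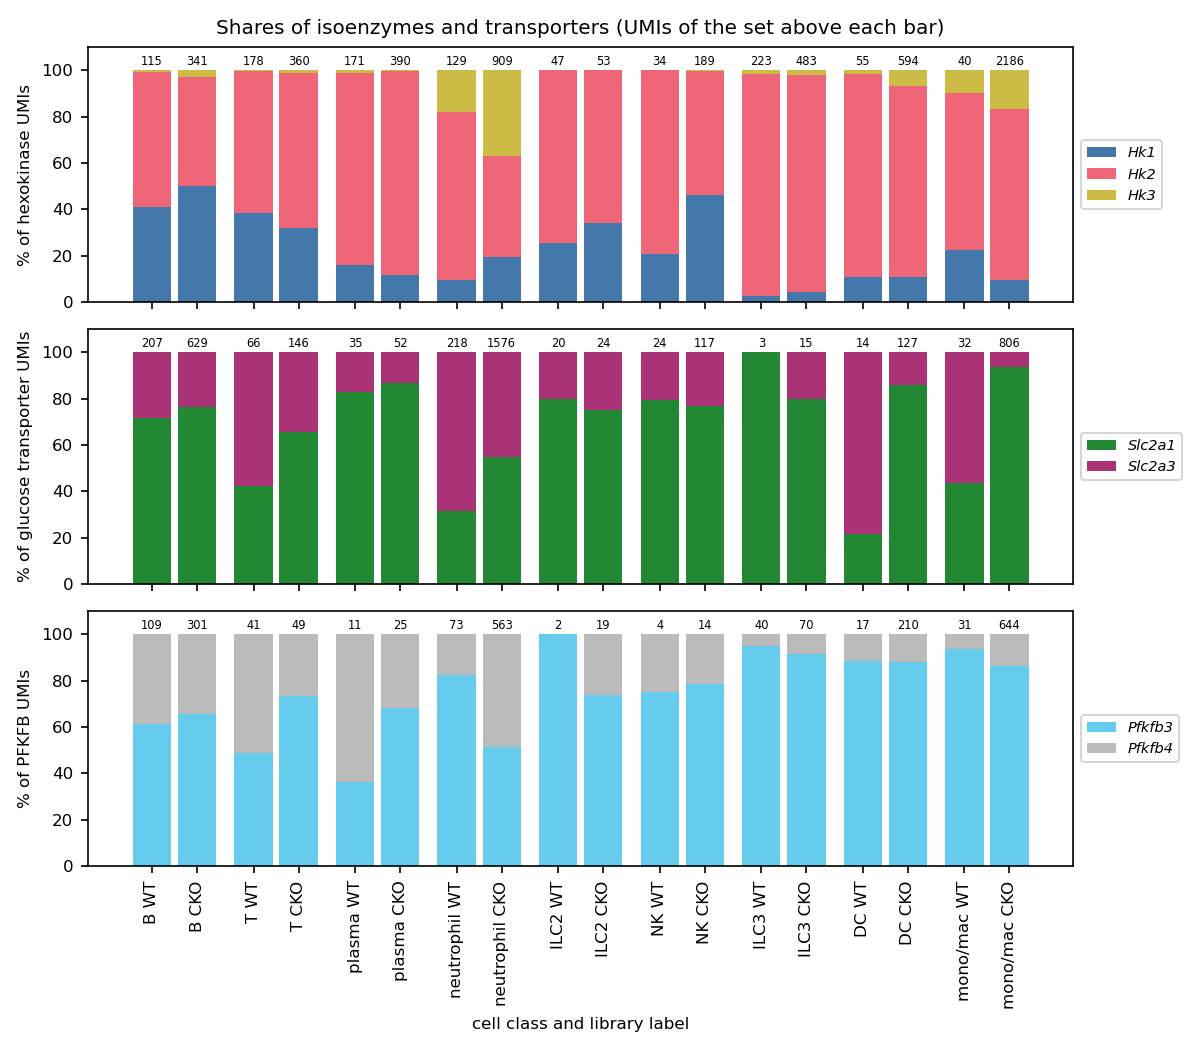
Shares (percent of UMIs) of hexokinases (top), glucose transporters (middle) and PFKFB enzymes (bottom) in each class and library, with the number of UMIs of the set above each bar (mono/mac stands for monocyte and macrophage-like). In neutrophil-like cells Hk3 takes 17.8% labelled WT and 37.0% labelled CKO, and in mono/mac Slc2a1 takes 43.8% and 93.4%.

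Other pairs were more lopsided. Pfkfb4 gave 17.8% (9.84 to 28.5) and 48.9% (44.6 to 53.1) of the PFKFB UMIs in neutrophil-like cells, and 38.5% and 34.6% in B-like cells. Slc16a3 gave 312 of 312 UMIs of the lactate transporter pair in neutrophil-like cells labelled WT and 99.98% labelled CKO. In B-like cells it gave 12.3% and 25.3%, and in plasma-like cells 11.8% and 12.7%. Ldhb, which favours lactate as its substrate, was rare. It gave 8.76% of lactate dehydrogenase UMIs in ILC3-like cells labelled CKO and 0 of 2018 in B-like cells labelled CKO, which allows a share of up to 0.183%. Bnip3 gave 28.6% (25.3 to 32.1) of the Bnip3 and Bnip3l UMIs in monocyte and macrophage-like cells and 25.5% (22.0 to 29.3) in neutrophil-like cells labelled CKO, against 2.14% to 7.94% in the T-like, B-like, plasma-like, NK-like, ILC3-like and DC-like cells of that library.

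Across the 9 classes Pkm, Ldha and Egln1 were past 1.5-fold in none, and Vegfa was past it in 6, higher in T-like and plasma-like cells and lower in neutrophil-like, NK-like, ILC3-like and B-like cells. Slc2a3 was lower in 4 of the 6 classes where it was read and higher in 0. Tpi1 was higher in 4 of 9 and lower in 0, and Gpi1 higher in 3 of 9 and lower in 0. Among these, intervals included 0 for Vegfa in plasma-like, Slc2a3 in NK-like, Tpi1 in DC-like and Gpi1 in ILC3-like cells. Slc2a3 in NK-like cells turned direction with cells called by their own markers. Over the 18 levels of 9 classes in 2 libraries, the members whose log2(CPM + 10) ran most alike were Eno1 and Gapdh (Pearson r = 0.90), Pgk1 and Gapdh (0.90) and Ldha and Aldoa (0.90). Hif1a ran closest to Hk1 (0.89) and Vegfa to Hk2 (0.81). These correlations are descriptions, because the points share libraries and classes. Summed over the members and thinned to 1000 UMIs, the mean number of member UMIs per cell was 4.22 and 4.90 for the neutrophil-like class, 4.27 and 5.23 for the monocyte and macrophage-like class, 2.63 and 3.01 in T-like cells and 1.51 and 1.40 in B-like cells. The quartiles overlapped between the libraries in each of these classes.

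Neighbouring pathways were read from lists of other genes. The pentose phosphate pathway, which branches from glucose 6-phosphate and supplies NADPH, had 6 genes read in neutrophil-like cells, of which 3 were higher and 0 lower, where 20.3% of all genes read were higher and 27.2% lower. Glucose-6-phosphate dehydrogenase G6pdx was at 12.8 and 58.7 CPM (log2 ratio 2.19; 0.95 to 3.83), transketolase Tkt at 38.5 and 147 CPM (1.93; 1.20 to 2.78) and Pgd at 59.1 and 130.2 CPM (1.14; 0.54 to 1.81). In monocyte and macrophage-like cells 0 of 9 genes of that list were higher and 2 lower (all genes 18.4% and 22.1%). Of 23 other glycolytic genes, 6 were read in neutrophil-like cells, with 3 higher, led by the ADP-dependent glucokinase Adpgk (2 and 175 UMIs; 2.71), and Gpd2 lower (-0.84, interval including 0).

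Other HIF pathway genes were mixed in direction. In monocyte and macrophage-like cells 6 of 23 read were higher and 1 lower (all genes 18.4% and 22.1%). The oxidative folding enzyme Ero1l was at 39.3 and 108 CPM (1.46) and the lipid droplet gene Hilpda at 216 and 459 CPM (1.09), while Hif1an, an inhibitor of HIF, had a log2 ratio of -0.91 with an interval that includes 0. In neutrophil-like cells 7 of 23 were higher and 8 lower (all genes 20.3% and 27.2%). Among the lower were Cited2 (229 and 104 CPM; -1.14) and Arnt, the partner of HIF-1 alpha (56.5 and 29.2 CPM; -0.95; -1.61 to -0.24). Hilpda was at 88.4 and 167 CPM in T-like cells (0.92; 0.67 to 1.18), where 5 of 25 genes were higher (all genes 15.9%), and at 1422 and 869 CPM in ILC2-like cells (-0.71; -0.86 to -0.56), where 4 of 22 were lower (all genes 11.3%). Its direction thus differed among classes, as Vegfa's did.

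Mitochondrial genes were read in the same way. Of 39 oxidative phosphorylation genes, 0 were past 1.5-fold in B-like, T-like, plasma-like and ILC2-like cells. The shares of all genes in these classes ran from 5.04% to 15.9% higher and from 7.65% to 11.3% lower. The log2 ratios of 36 genes lay below 0 and of 3 above it in B-like cells. These counts were 7 and 32 in T-like, 28 and 11 in plasma-like and 23 and 16 in ILC2-like cells. In neutrophil-like cells (all genes 20.3% and 27.2%) 3 of 36 were higher and 6 lower, led by Atp5g1 (41.1 and 10.7 CPM; -1.94), and of 18 TCA cycle genes 1 was higher, Sdhb (1.28), and 4 were lower, led by Sdhc (-2.01) and Pdhb (-1.34). In monocyte and macrophage-like cells (all genes 18.4% and 22.1%) 2 of 39 oxidative phosphorylation genes were higher and 0 lower. Their median log2 ratio was 0.26, against -0.06 for all genes, with 30 ratios above 0 and 9 below. Of the TCA cycle genes 7 of 23 were higher there, including Suclg1 (1.35), Idh3g (1.25) and the citrate synthase Cs (1.11), and 1 was lower. Of the 7 only Idh3g had an interval above 0. Among MYC and mTORC1 regulators, Myc was at 132 and 85.1 CPM in B-like cells (-0.63; -0.76 to -0.50) and at 228 and 126 CPM in ILC2-like cells (-0.86; -1.25 to -0.48). Myc was also lower in plasma-like cells (-0.68; -1.15 to -0.20) and, by less than 1.5-fold, in T-like cells (-0.53; -0.93 to -0.12). Its intervals included 0 in NK-like (-0.0014), DC-like (0.36) and monocyte and macrophage-like cells (-0.50). Txnip, which restrains glucose uptake, was at 157 and 241 CPM in B-like cells (0.62; 0.51 to 0.73).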

How the data were processed

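Single-cell RNA of colon-infiltrating immune cells was measured in 2 libraries, 1 labelled WT and 1 labelled CKO. The deposited matrices hold whole UMI counts per gene and cell, not normalized, made with Cell Ranger 6.0.1 per the file headers. A different version, Cell Ranger 5.0.0, stands in the submitters' processing notes, beside Seurat 3.2.3 and the build mm10. Cells with at least 200 genes and at most 20% mitochondrial UMIs were kept, and 1 and 213 cells marked as doublets by Scrublet (in scanpy 1.11.5) were left out. The 30 members were kept out of the 2000 variable genes, from which 30 principal components, 15 neighbours and Leiden clusters at resolution 1 were computed (leidenalg 0.10.2). Cells were clustered again within lymphoid, B and myeloid compartments (1500 variable genes, 20 components), and clusters were named from marker lists. UMIs were summed per class and library (numpy 2.4.6, scipy 1.17.1, pandas 2.3.3) and not divided by gene length, since a 3′ tag is counted once per transcript. Aldoa has 2 rows, of which the second held 0 UMIs. Members with 20 or more UMIs over both libraries that were read and had a ratio past 1.5-fold were all named, and each member was named in its class of highest level. Up to 4 genes per direction were named from other lists. The precision is set by UMIs per class, from 203379 (monocyte and macrophage-like, WT) upward, and intervals are 95% exact ones. The statistics were tested on simulated data. Alternatives were other scalings, UMI minimums, folds, cell filters, doublets retained, another Leiden resolution, members kept among the clustering genes, cells called by their own markers, per-cell means, equal subset weights and leaving out the cell of most UMIs. The members and lists were chosen with earlier results of these data known.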

Additional observations from a re-analysis of the deposited data

Results flagged for a closer look

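For 6 members the log2 ratio (CKO over WT label) was past 1.5-fold, with a counting interval away from 0, in opposite directions in different classes. Only ratios that meet both conditions are given, and the difference between classes was not tested. A further 7 members (Pfkl, Pfkfb3, Pfkfb4, Pgam1, Slc16a3, Bnip3 and P4ha1) were past 1.5-fold in both directions, but in at least 1 of the directions every interval included 0. Hk2 was at 1.01 in monocyte and macrophage-like cells, -1.66 in neutrophil-like and -1.16 in NK-like cells. Pfkp was at 0.66 in plasma-like and -0.63 in neutrophil-like cells. Eno1 was at 1.01 in neutrophil-like and -0.67 in plasma-like cells. Slc2a1 was at 1.18 in T-like, 1.64 in DC-like and 0.86 in monocyte and macrophage-like cells, and at -0.82 in NK-like cells. Hif1a was at 0.99 in DC-like and -0.76 in plasma-like cells. Vegfa was at 1.43 in T-like cells, and at -0.73 in B-like, -2.36 in neutrophil-like, -1.01 in NK-like and -0.59 in ILC3-like cells. The lower side of Eno1 and of Hif1a rests on plasma-like cells alone, and neither value held under all settings. With cells called by their own markers, Eno1 in plasma-like and Hk2 in NK-like cells turned direction. With doublets retained, Hif1a in plasma-like cells was under 1.5-fold.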

How the results depend on the processing

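Of 71 named ratios, 67 stayed past 1.5-fold under median-of-ratios scaling, 61 with per-cell means, 62 with doublets retained and 38 of 62 with cells called by their own markers. Under the last setting 5 ratios turned: Bnip3 in T-like cells (0.30), Eno1 in plasma-like (0.036), Hk2 (0.34) and Slc2a3 (0.10) in NK-like and Pdk1 in monocyte and macrophage-like cells (-0.95). Of 240 counts of members, 191 stayed within 1.5 times. Median-of-ratios scaling gave 13 higher in neutrophil-like, 1 higher in NK-like, 1 lower in ILC3-like and 1 lower in monocyte and macrophage-like cells. A minimum of 10 UMIs gave 2 higher in B-like cells and 3 higher and 5 lower in ILC2-like cells. A minimum of 50 gave 1 lower in T-like, ILC2-like, ILC3-like and DC-like cells and 1 higher in plasma-like and ILC3-like cells. A fold of 2 gave 2 higher and 1 lower in plasma-like, 4 higher in neutrophil-like, 1 lower in ILC2-like, 3 lower in NK-like, 0 in either direction in ILC3-like, 3 higher in DC-like, and 5 higher and 1 lower in monocyte and macrophage-like cells. With doublets retained 1 was lower in plasma-like, 3 higher in ILC2-like and 1 higher in NK-like cells. Members kept among the clustering genes gave 2 higher in ILC2-like cells, and a Leiden resolution of 0.5 gave 2 lower in T-like and 1 higher in NK-like cells. Cells called by their own markers gave 7 higher and 0 lower in T-like, 2 in each direction in plasma-like, 3 higher in ILC2-like, 3 higher in NK-like, 1 lower in ILC3-like and 4 lower in monocyte and macrophage-like cells. Per-cell means gave 2 higher in B-like, 3 higher in ILC2-like and 5 lower in DC-like cells. Without the cell of most UMIs, 2 were higher in B-like, 2 lower in T-like, 13 higher in neutrophil-like, 3 higher and 1 lower in ILC2-like, 4 higher and 2 lower in NK-like, 1 lower in ILC3-like and 1 lower in monocyte and macrophage-like cells. Leaving out that cell usually takes a larger share of a member's UMIs from the library labelled WT, which has fewer cells, and so tends to raise the ratios. The cause of the differences under the other settings was not tested. The shares of all genes given above do not apply to any of these counts. DC-like cells called by their own markers numbered 16 labelled WT, under the minimum of 20, and gave no value. No paired analysis was possible because each label has 1 library, which also leaves no replicate to leave out. Depth labelled WT was lowest in monocyte and macrophage-like (203379 UMIs), ILC3-like (232248), NK-like (236906) and DC-like cells (265335). In monocyte and macrophage-like and DC-like cells ratios rest on as few as 1 UMI labelled WT.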
